A study of Sus scrofa with 6 samples.

Results

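Collagens, laminins and the integrins that bind them were followed in aortic valve leaflets of the pig under normal and raised cyclic pressure. Genes were taken by their symbol on the array: COL, LAMA, LAMB, LAMC, ITGA or ITGB followed by a digit, and integrin alpha chains with a letter. This gave 31 of the 6765 genes with a single symbol, of which 15 encode collagen chains, 3 laminin chains and 12 integrin subunits. The remaining gene, ITGB1BP2, encodes a protein that binds an integrin tail and is no subunit, so it was kept out of the classes. Where a gene had several probe sets, the brightest over all arrays stood for it. No laminin alpha chain was among the 31.

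The leaflets came from adult female pigs; the labels give no breed. They had been treated with collagenase to strip the endothelium, kept overnight in serum-containing medium and then pressurised at 1 Hz for 24 h in a bioreactor. Pressure cycled between 0 and 80 mmHg in the normotensive group and between 0 and 120 mmHg in the hypertensive group, with 3 arrays in each and no unpressurised group. The labels call the arrays biological replicates without saying if separate animals were used; p-values therefore reflect only the spread among these arrays, which may be technical. An excised leaflet in medium has no blood flow and little endothelium, which limits it as a model of the valve in the body.

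Collagens are the main tensile proteins of the leaflet, assembled from 3 chains that wind into a triple helix. Fibrillar types I, III and V build the fibres that carry load when the valve is shut, type VI forms fine beaded filaments around cells, and type IV with the laminins forms basement membranes. A laminin is a trimer of an alpha, a beta and a gamma chain. Integrins are pairs of an alpha and a beta subunit in the cell membrane; they bind these proteins outside and link to actin inside, and so are a route by which cells sense load.

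Values are MAS5 signal intensities, which cannot be compared between probe sets, so genes are compared only with themselves across arrays. Ratios of genes and sums over marker lists are likewise compared only across arrays, and a sum leans on its brightest probe sets. Differences are in log2 signal, hypertensive minus normotensive, with the standard error (SE) of limma's fit. A gene was tested where its mean log2 signal reached the 40th percentile of all probe sets, a signal of 48.5, and 21 of the 31 genes did so. By limma with Benjamini-Hochberg adjustment over 14399 probe sets, 0 of the 21 passed an adjusted p of 0.05; among the 5271 genes tested, 0 (0%) passed. At an unadjusted p under 0.05 there were 2 of 21, both lower, where 10.2% of all genes were lower and 6.85% higher at that level. Nothing below is therefore a change that passed; "higher" and "lower" compare group means.

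The arrays were not alike within the hypertensive group. Across tested probe sets, the mean correlation of hypertensive replicates 1, 2 and 3 to the normotensive group was 0.817, 0.950 and 0.895. The GAPDH control ratio, 3′ over 5′ probe set, was between 2.11 and 3.67 on replicates 1 and 2 of both groups. It was 7.52 and 6.04 on replicate 3 of the normotensive and hypertensive groups. Both other pairs of GAPDH probe sets gave higher ratios on every array, from 4.56 to 24.8 and from 17.6 to 37.4. Interstitial or fibroblast markers had 8 of 9 measured genes above the filter level, with VIM at 18606 to 26412, and smooth muscle or myofibroblast markers 4 of 6. All 7 cardiac muscle and all 3 adipocyte markers were below it.

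**Figure D1:**
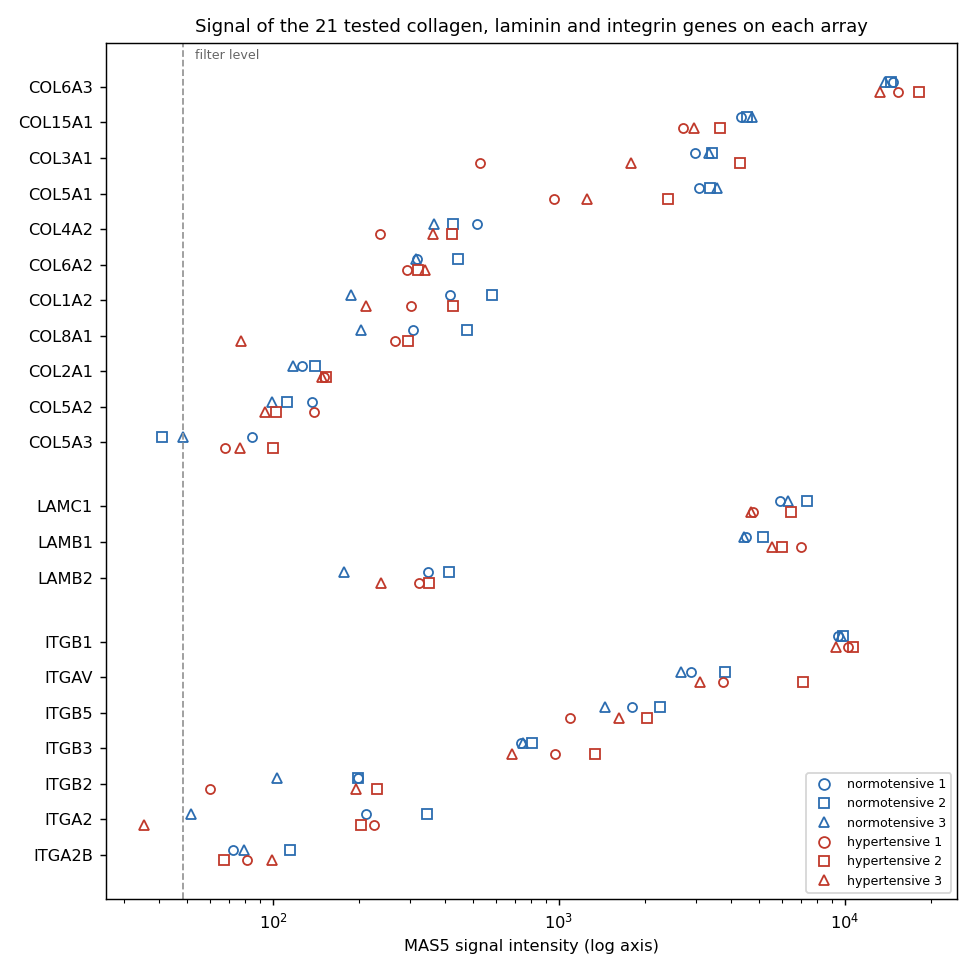
Signal of the 21 tested genes on each of the 6 arrays, on a log axis. Blue marks are normotensive and red marks hypertensive arrays, with circle, square and triangle for replicates 1, 2 and 3. The groups of COL5A1, COL15A1, COL2A1 and LAMB1 do not overlap.

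Collagens had lower means more often than higher ones. Of the 11 tested, 8 were lower (72.7%, where 55% of all genes tested were lower) and 3 higher, and their median difference was -0.25, against -0.07 for all genes tested. The groups did not overlap, with lower signal, in 2 of the 11, COL5A1 and COL15A1, and that is close to the 12.6% of all genes. In 1 of the 11, COL2A1, they did not overlap with higher signal, against 9.28% of all genes. The tested collagens ran from -1.23 for COL5A1 to 0.55 for COL5A3.

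Markers of the interstitial cells or fibroblasts, which make most leaflet collagen, were lower beside the collagens. Of the 8 tested, 7 had lower means (87.5%, against 55% of all genes tested), and FAP had a higher one, by 0.63. Their median difference was -0.30, against -0.07 for all genes tested, with 0 past the adjusted threshold. The groups did not overlap, with lower signal, in 2 of the 8, LUM and POSTN, against 12.6% of all genes. Lumican (LUM), a proteoglycan that binds collagen fibrils, was chosen after its values were seen. It was at 13643, 12735 and 13301 at 80 mmHg and 4740, 10659 and 7658 at 120 mmHg, a difference of -0.86 (SE 0.27, adjusted p = 0.257 by limma; 0.0104 without hypertensive replicate 2, and 0.00144 to 0.715 over all alternatives). The summed signal of the list was 96319 to 98384 on normotensive and 70182 to 88698 on hypertensive arrays, with no overlap. Replicate 1 was the lowest and replicate 2 the highest of the latter. This sum includes LUM and POSTN, so its lack of overlap is not separate from theirs. The groups of VIM and FN1, which had the largest signals in the sum, overlapped. All 4 tested markers of smooth muscle or myofibroblasts had lower means, against 55% of all genes tested, with a median of -0.75. Each had groups that overlapped. With array weights 2 of the 4 were lower and with median centring 3. Their summed signal was 3898 to 6027 on normotensive and 2720 to 5013 on hypertensive arrays. The part of these cells in the collagen signals was not tested.

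COL5A1 encodes the alpha 1 chain of type V collagen, which sits inside type I fibrils and sets their diameter. Its signal was 3076, 3379 and 3571 at 80 mmHg and 959, 2410 and 1251 at 120 mmHg, in each case for replicates 1, 2 and 3 in order, as below. All hypertensive arrays thus lay below all normotensive arrays, with replicate 2 the nearest. The means were 3342 ± 249 and 1540 ± 768 (SD, n = 3 each), a log2 difference of -1.23 (SE 0.35) and an adjusted p of 0.238 by limma. A second probe set of COL5A1 pointed the same way but overlapped, at 719, 738 and 610 against 468, 642 and 355, with a difference of -0.53.

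The other chains of type V collagen did not show this difference. COL5A2, the usual partner of COL5A1 in the trimer, was at 136, 111 and 98.9 at 80 mmHg and 139, 102 and 93.9 at 120 mmHg. The COL5A2 groups overlapped throughout, with a difference of -0.06 (SE 0.31), and its dimmer probe set had the opposite sign, at 0.99. COL5A3, a further chain found in fewer tissues, was at 84.1, 40.7 and 48.4 and then at 67.7, 99.6 and 76.8, a difference of 0.55 (SE 0.39) with overlapping groups. Taken within each array, the COL5A1 signal relative to that of COL5A3 was lower by 1.78 on the log2 scale at hypertensive pressure, and did not overlap between groups. Relative to COL5A2 it was lower by 1.17, with groups that overlapped. The exact permutation p, 2-sided, was 0.1 for COL5A3 and 0.2 for COL5A2; with 3 arrays against 3 it cannot go below 0.1. Adjusted over the 10 pairs of partner chains compared, these were 0.333 and 0.5. COL5A3 had signals near the filter level, where MAS5 values are least precise. COL5A2 lay above that level on all 6 arrays, at the 53.5th percentile of probe sets by mean log2 signal.

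COL15A1 encodes the core of a collagen of the basement membrane zone that carries sugar side chains. Its signal was 4344, 4534 and 4743 at 80 mmHg and 2703, 3648 and 2964 at 120 mmHg. Again all 3 hypertensive arrays lay below, with replicate 2 closest. The difference was -0.56 (SE 0.20, adjusted p = 0.269 by limma), a hypertensive level of 0.679 times the normotensive one.

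COL3A1, the chain of type III collagen that runs with type I in pliable tissue, varied more among hypertensive arrays, on the log2 scale, than any other tested collagen. It was at 2989, 3420 and 3337 at 80 mmHg and 527, 4309 and 1789 at 120 mmHg. Replicates 1 and 3 were thus below the normotensive range and replicate 2 above it. The difference of -1.02 (SE 0.65, adjusted p = 0.413 by limma) became -0.22 without hypertensive replicate 1 and -1.74 without replicate 2. COL3A1 and COL5A2 are immediate neighbours in the pig assembly Sscrofa11.1, and COL5A2 did not show the low value of replicate 1.

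Without hypertensive replicate 2, COL5A1 (-1.61, adjusted p = 0.00433), COL3A1 (adjusted p = 0.0304) and COL15A1 (-0.68, adjusted p = 0.0289) passed by limma. These were 3 of the 11 collagens, and 15.7% of all genes tested passed with lower and 10.3% with higher signal in that fit. Over all alternatives the adjusted p ran from 0.000918 to 0.715 for COL5A1, 0.0282 to 0.848 for COL3A1 and 0.00837 to 0.715 for COL15A1. With array weights, those 3 and COL8A1 and ITGA2 passed, against 25.3% of all genes with lower and 15.4% with higher signal. The weights were 6.96, 0.93 and 1.15 on normotensive and 0.29, 0.19 and 2.38 on hypertensive replicates 1, 2 and 3. That fit thus leaned on normotensive replicate 1 and hypertensive replicate 3, the array where COL8A1 and ITGA2 were lowest. No laminin passed in either fit, and no member passed with higher signal.

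COL1A2, the alpha 2 chain of type I collagen, was at 416, 583 and 187 at 80 mmHg and 303, 426 and 211 at 120 mmHg. Its groups overlapped, and replicate 3 was lowest in each. The difference of -0.25 (SE 0.47) turned to 0.11 without normotensive replicate 2. A dimmer COL1A2 probe set did not overlap, at 151, 138 and 125 against 77.7, 60.9 and 79.7, with a difference of -0.93 (SE 0.30, adjusted p = 0.257 by limma). COL2A1, the collagen of cartilage, was at 127, 140 and 117 and then 150, 153 and 149. Its hypertensive arrays lay just above the normotensive ones, a difference of 0.24 (SE 0.27). The cartilage markers ACAN, SOX9, COMP and HAPLN1 all had a mean log2 signal above the filter level, 2 with higher and 2 with lower group means. SOX9 was below that level on normotensive replicate 2, at 11.6, and on hypertensive replicate 3, at 32.1. The summed signal of the list was 2344 to 4371 on normotensive and 2101 to 4497 on hypertensive arrays. The part of cartilage cells in the COL2A1 signal was not tested.

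**Figure D2:**
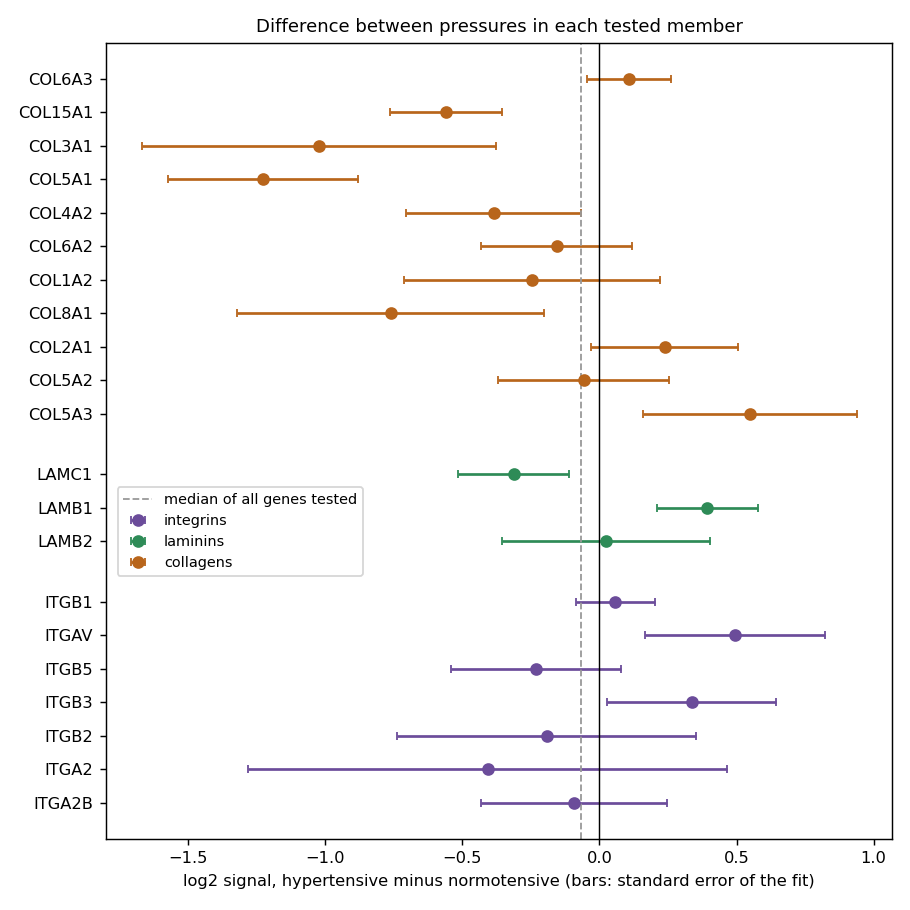
Log2 difference between pressures for the 21 tested genes, by class, with bars for the standard error of the fit (3 arrays per group) and a dashed line at the median of all genes tested. COL5A1 at -1.23 and COL3A1 at -1.02 are the farthest from 0, and ITGB1 at 0.06, LAMB2 at 0.03 and COL5A2 at -0.06 are the nearest.

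Type VI collagen differed less between pressures than the spread of its arrays. COL6A3, the long chain of the type VI filament, was at 14756, 14450 and 13748 and at 15314, 18105 and 13240, which gave a difference of 0.11 (SE 0.15) that quantile normalization turned to -0.03. COL6A2, a shorter chain of that filament, was at 318, 443 and 316 and at 294, 322 and 340, a difference of -0.16 (SE 0.28). Groups overlapped for each. COL4A2, a chain of the basement membrane network, was at 517, 426 and 366 at 80 mmHg and 236, 422 and 364 at 120 mmHg. Hypertensive replicate 1 stood low for COL4A2, while replicate 2 lay within and replicate 3 just under the normotensive range, and the difference was -0.38 (SE 0.32). COL8A1, a short-chain collagen of vessel and valve matrix, was at 308, 477 and 202 and at 267, 296 and 77.3. Its difference of -0.76 (SE 0.56) became -0.14 without hypertensive replicate 3, the array at 77.3.

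The other 4 collagens were below the filter level and were not tested. COL11A1, a minor fibrillar chain, was at 43.6, 45.5 and 59.0 at 80 mmHg and 23.8, 7.68 and 30.6 at 120 mmHg, which did not overlap. Only 1 of these 6 signals was above the filter level, so no fold is given. A dimmer COL11A1 probe set, below that level on every array, overlapped and had the higher mean at 120 mmHg, 19.7 against 6.85. COL10A1, the collagen of growth-plate cartilage, was at 5.89 to 7.41 at 80 mmHg and at 8.02 to 15.2 at 120 mmHg. These did not overlap, in the other direction, and all were below the filter level. COL7A1, of the anchoring fibrils under epithelia, ran from 12.9 to 67.7, and COL17A1, a membrane-spanning collagen of epithelial cells, from 20.9 to 65.5.

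Genes that modify, cleave and cross-link collagen were read beside the collagens, from a list of 39 symbols of which 17 were measured and tested. Of the 17, 11 had lower (64.7%, against 55% of all genes tested) and 6 higher means. Their median difference was -0.28, against -0.07 for all genes tested, and 0 passed the adjusted threshold. The groups did not overlap in 3 with lower and 2 with higher signal, against 12.6% and 9.28% of all genes, which is near the same share. FKBP14, a prolyl isomerase of the endoplasmic reticulum that helps collagen fold, was at 2267, 3025 and 2518 and at 379, 1908 and 481. Replicates 1 and 3 were thus at a small part of the normotensive signal and replicate 2 just below it, for a difference of -1.88 (SE 0.56, adjusted p = 0.253 by limma), or -2.60 without replicate 2. FKBP10, a related isomerase, was at 1819, 1203 and 1521 and at 775, 989 and 898, a difference of -0.76 (SE 0.27, adjusted p = 0.269 by limma). SEC31A, a coat protein of the vesicles that carry procollagen out of the endoplasmic reticulum, differed by -0.28 without overlap, and by 0.04 over the mean of its probe sets.

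BMP1, the protease that trims the end of procollagen, had higher signal at 120 mmHg. It was at 378, 364 and 170 at 80 mmHg and 1371, 712 and 453 at 120 mmHg, all of the latter above the former. The hypertensive level was 2.66 times the normotensive one, a difference of 1.41 (SE 0.48, adjusted p = 0.268 by limma). The collagen-binding protein SPARC also had higher signal without overlap, by 0.12.

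P4HA2, PLOD1 and COLGALT1, enzymes that hydroxylate or glycosylate collagen chains, were chosen after their values were seen. P4HA2 was at 4192, 5085 and 3116 and at 532, 5597 and 751. PLOD1 was at 3138, 3369 and 2246 and at 870, 3413 and 854. COLGALT1 was at 2154, 1817 and 1604 and at 569, 2152 and 785. In all 3, hypertensive replicates 1 and 3 lay under every normotensive array and replicate 2 did not. The medians of the 17 processing genes were -0.73, 0.19 and -0.45 on hypertensive replicates 1, 2 and 3, against -0.20 to 0.10 on the normotensive arrays. For the 11 collagens they were -0.24, -0.03 and -0.29, against -0.17 to 0.02.

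**Figure D3:**
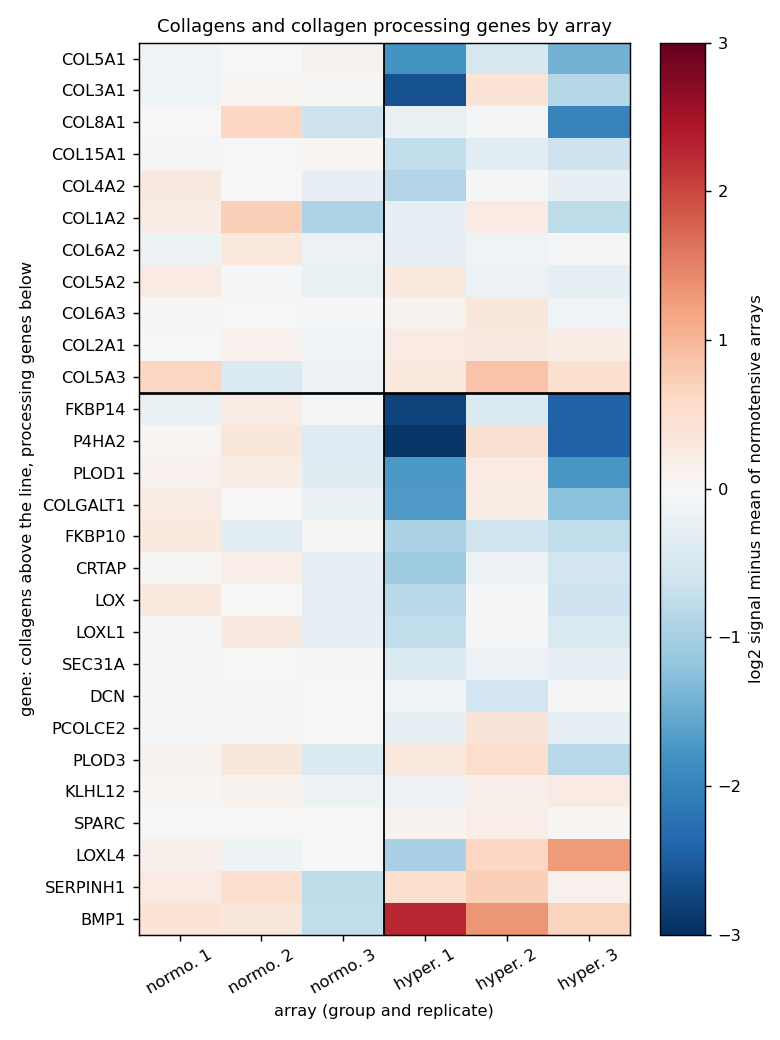
Log2 signal of the 11 tested collagens (above the line) and 17 processing genes (below it) on each array, minus the gene's mean over the normotensive arrays; blue is lower and red higher. Hypertensive replicates 1 and 3 are blue for FKBP14, P4HA2, PLOD1 and COLGALT1, where replicate 2 is much paler, and BMP1 is red on all 3 hypertensive arrays.

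The 3 laminin chains did not share a direction; 2 had higher and 1 a lower mean, and their median difference was 0.03. LAMB1, the beta 1 chain, was at 4497, 5173 and 4446 at 80 mmHg and 7014, 6016 and 5553 at 120 mmHg. Its groups did not overlap, in 1 of 3 laminins against 9.28% of all genes, with a difference of 0.39 (SE 0.18, adjusted p = 0.314 by limma). A dimmer LAMB1 probe set also had a higher mean, at 161, 190 and 78.9 against 327, 238 and 147, with groups that overlapped. LAMC1, the gamma 1 chain that joins beta 1 in most laminins, was at 5925, 7389 and 6310 and at 4757, 6452 and 4695. Replicates 1 and 3 were below the normotensive range and replicate 2 within it, a difference of -0.31 (SE 0.20, adjusted p = 0.421 by limma). Of the 3 further LAMC1 probe sets tested, the brighter 2 had differences of -0.30 and -0.25 and the dimmest one of -0.00038.

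The LAMB1 signal relative to that of LAMC1 was taken on each array as a log2 ratio less its normotensive mean. It lay at 0.07, -0.04 and -0.03 at 80 mmHg and at 1.03, 0.37 and 0.71 at 120 mmHg. With the brightest probe set of each gene, the ratio was thus higher on every hypertensive array, by 0.71 on average. Its SD was 0.06 among normotensive and 0.33 among hypertensive arrays. The exact permutation p, 2-sided, was 0.1, the smallest 3 arrays against 3 can give, and 0.333 adjusted over the 10 pairs. With any of the 3 further LAMC1 probe sets tested in place of the brightest, the ratio overlapped between groups. Among those 10 pairs, by brightest probe sets, 3 did not overlap between groups: LAMB1 with LAMC1, COL5A1 with COL5A3, and ITGAV with ITGB5. LAMB1 and COL5A1 did not overlap by themselves either, so their ratios are not separate from that. How often ratios of other genes do not overlap was not counted, so no share stands beside this count. LAMB2, the beta 2 chain of vessel and muscle basement membranes, was at 349, 413 and 178 and at 324, 351 and 238. It overlapped, with a difference of 0.03 (SE 0.38) that was -0.34 without normotensive replicate 3.

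Some endothelial markers had signal, and basement membrane genes are also made by endothelium. Of 14 endothelial markers measured, 7 were above the filter level; VWF was below it on every array, at 6.83 to 26.6, and ERG was at 1142 to 1780 and then 899 to 1019. Of the 7 tested, 5 had lower (71.4%, against 55% of all genes tested) and 2 higher means, with a median difference of -0.17. CDH5, the endothelial cadherin, was at 12.3 to 40.5 on normotensive and 68.4 to 115 on hypertensive arrays. The mean log2 signal of CDH5 was below the filter level, so it was not tested. The summed signal of the list was 2735 to 3306 on normotensive and 2335 to 4652 on hypertensive arrays. SELP and SELE were singled out after their values were seen. SELP, the P-selectin of activated endothelium and platelets, was at 95.4, 245 and 90.6 at 80 mmHg and 2296, 784 and 368 at 120 mmHg, and so made up much of the highest sum, that of hypertensive replicate 1. Its groups did not overlap, with a difference of 2.76 (SE 0.67, adjusted p = 0.235 by limma; 0.0324 without hypertensive replicate 2, and 0.00407 to 0.715 over all alternatives). Without hypertensive replicate 1 the difference was 2.07. SELE, the endothelial E-selectin, was at 1.11, 4.50 and 1.62 and then at 443, 64.6 and 29.3, below the filter level on all but 2 arrays. The part of these cells in the LAMB1, LAMC1, COL4A2 and COL15A1 signals was not tested. In pieces of tissue, fewer cells of a type and less RNA per cell cannot be told apart.

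Of the 7 integrin subunits tested, 0 had groups that did not overlap, where 21.9% of all genes did. With only 7 genes this count cannot be told apart from that share. Of the 7, 3 had higher and 4 lower means, with a median difference of -0.09, close to the -0.07 of all genes. Differences ran from -0.41 for ITGA2 to 0.50 for ITGAV. ITGB1, the beta 1 subunit shared by the collagen and laminin receptors, was at 9418, 9852 and 9677 and at 10246, 10651 and 9276. Replicates 1 and 2 lay above the normotensive range and replicate 3 below it, a difference of 0.06 (SE 0.14) that quantile normalization turned to -0.04. This was the smallest SE among the 21 tested genes.

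ITGAV, the alpha v subunit of receptors for fibronectin and vitronectin, was at 2901, 3811 and 2678 at 80 mmHg and 3738, 7126 and 3114 at 120 mmHg. Replicate 2 was far above the other arrays, and replicates 1 and 3 lay inside the normotensive range. The difference was 0.50 (SE 0.33, adjusted p = 0.431 by limma). ITGB3, a beta partner of alpha v, was at 736, 802 and 748 and at 971, 1338 and 683. Replicates 1 and 2 were above and replicate 3 below the normotensive range, a difference of 0.34 (SE 0.31). ITGB5, another beta partner, was at 1795, 2249 and 1449 and at 1094, 2038 and 1623, a difference of -0.23 (SE 0.31) with overlapping groups.

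Relative to ITGB5 on the same array, ITGAV was higher at hypertensive pressure by 0.73 (exact permutation p, 2-sided, of 0.1, and 0.333 adjusted over the 10 pairs). This log2 ratio was 0.99, 1.03 and 0.16 on hypertensive replicates 1, 2 and 3, and -0.09, -0.02 and 0.11 on the normotensive arrays. Replicate 3 was thus barely above them. Relative to ITGB3, ITGAV was higher by 0.16, with overlapping values and an exact permutation p of 0.5, and relative to ITGB1 it was higher by 0.44 with p = 0.3.

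**Figure D4:**
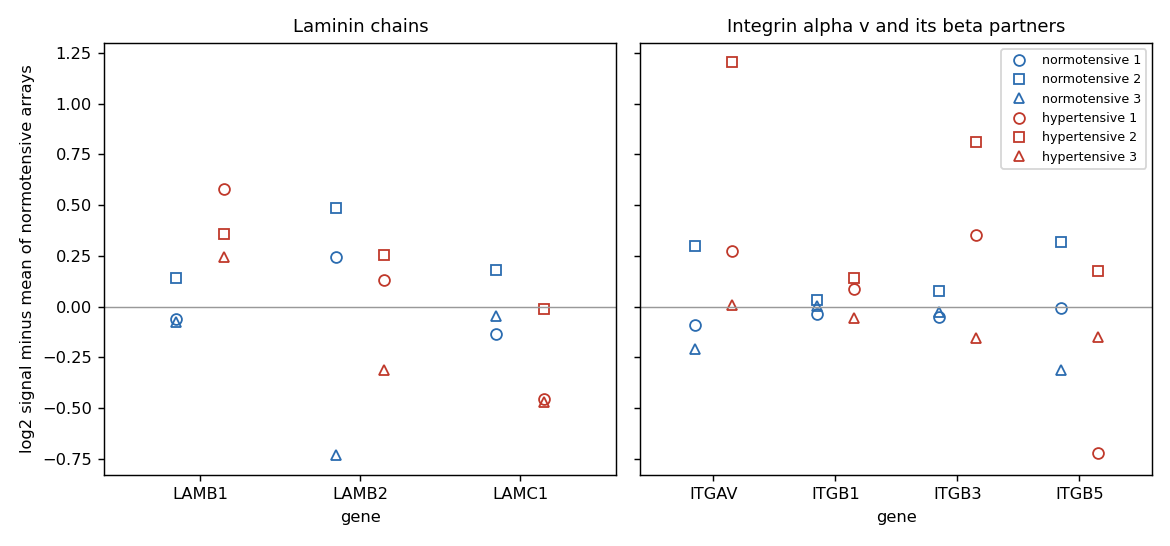
Log2 signal on each array minus the mean of the normotensive arrays, for the 3 laminin chains and for ITGAV with its beta partners. Blue marks are normotensive and red marks hypertensive arrays, with circle, square and triangle for replicates 1, 2 and 3. LAMB1 lies at 0.24 to 0.58 and LAMC1 at -0.47 to -0.01 on the hypertensive arrays, and hypertensive replicate 2 is the highest array for ITGAV and ITGB3.

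ITGA2, which pairs with beta 1 to bind collagen and laminin, followed the replicate number more than the pressure. It was at 211, 347 and 51.8 at 80 mmHg and 225, 204 and 35.5 at 120 mmHg. Replicate 3 was lowest in each group, and the difference of -0.41 (SE 0.87) became 0.46 without hypertensive replicate 3 and -1.20 without normotensive replicate 3. The other alpha subunit tested, ITGA2B of platelets, was at 72.3, 115 and 79.1 and at 81.0, 67.2 and 99.4, with a difference of -0.09 (SE 0.34).

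Among the leukocyte integrins only ITGB2 reached the filter level. ITGB2, the beta 2 subunit of white blood cells, was at 198, 197 and 103 at 80 mmHg and 60.0, 231 and 195 at 120 mmHg. Its groups overlapped, and the difference of -0.19 (SE 0.55) became 0.42 without hypertensive replicate 1. Its partner ITGAM, of macrophages and neutrophils, was below the filter level on every array, at 5.68 to 31.0, and ITGB7 of lymphocytes likewise, at 6.45 to 24.9. Of 13 leukocyte markers measured, 9 were above the filter level, with a summed signal of 4313 to 8361 on normotensive and 3242 to 6634 on hypertensive arrays. The lowest of these sums was on hypertensive replicate 1, where ITGB2 was also lowest; the part of leukocytes in its signal was not tested. The alpha subunits ITGA5, ITGA6 and ITGA8, receptors for fibronectin, laminin and RGD-bearing ligands, had means below the filter level too. ITGA5 ran from 19.9 to 60.1, ITGA6 from 1.99 to 31.8 and ITGA8 from 16.3 to 43.8. A dimmer ITGA5 probe set did not overlap, at 6.82, 9.09 and 9.57 at 80 mmHg and 32.8, 18.2 and 32.8 at 120 mmHg. All these signals were below the filter level. ITGB1BP2, the binding protein named above, was at 1.83 to 54.9.

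Proteins that link integrins to actin or shape their signalling were read from a list of 37 symbols, of which 16 were measured and tested. Of these, 11 had lower (68.8%, against 55% of all genes tested) and 5 higher means. Their median difference was -0.28, against -0.07 for all genes tested, and 0 passed the adjusted threshold. The groups did not overlap in 2, with lower signal in each, close to the 12.6% of all genes. CD151, a tetraspanin that associates with laminin-binding integrins, was at 1661, 1328 and 1225 and at 595, 1090 and 592, a difference of -0.94 (SE 0.32, adjusted p = 0.269 by limma). Vinculin (VCL), which ties talin to actin at adhesions, was at 3790, 3763 and 4156 and at 1459, 3144 and 3017, a difference of -0.70 (SE 0.32, adjusted p = 0.304 by limma). For each of these the hypertensive arrays were below all normotensive arrays.

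Other matrix proteins that integrins bind numbered 12 measured of 27 listed, of which 11 were tested. Of the 11, 7 had lower (63.6%, against 55% of all genes tested) and 4 higher means. Their median difference was -0.11, against -0.07 for all genes tested, and 0 passed the adjusted threshold. The groups did not overlap in POSTN and NID2, with lower signal (-0.53, SE 0.18, and -0.67, SE 0.23), and in SPP1, with higher signal (0.27, SE 0.14). These counts of 2 and 1 of the 11 are near the shares of all genes, 12.6% lower and 9.28% higher. Periostin (POSTN) was at 12507, 16392 and 14162 and at 10065, 8335 and 11419. NID2, which bridges laminin and type IV collagen, was at 3302, 2528 and 3527 and at 2045, 2027 and 1779. In POSTN hypertensive replicate 2 was the farthest from the normotensive arrays, unlike in COL5A1 and COL15A1, where it was the nearest. In NID2 hypertensive replicates 1 and 2 were nearly equal.

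The 3 classes were also set side by side by array. Hypertensive replicate 2 was the highest hypertensive array in 16 of the 21 tested genes, where 45.5% of all genes had it so. Hypertensive replicate 1 was the lowest of all 6 arrays in 7 of the 21, near the 31.9% of all genes. Replicate 3 was the lowest of its group under both pressures in 9 of the 21, where 18.9% of all genes showed this. Those 9 were COL1A2, COL2A1, COL5A2, COL6A3, COL8A1, LAMB1, LAMB2, ITGA2 and ITGAV. The second brightest LAMC1 probe set did so as well, at 1728, 2114 and 663 at 80 mmHg and 938, 2405 and 578 at 120 mmHg, while the brightest had replicate 3 at 6310 and 4695. Replicate 3 had the highest GAPDH 3′ to 5′ ratio in each group, in all 3 pairs of GAPDH probe sets, but the other controls did not share this order. An actin ratio was highest on replicate 3 of the normotensive group, at 109, and lowest on replicate 3 of the hypertensive group, at 52.5 beside 79.5 and 81.7. The EF1A ratio was highest on normotensive replicate 3, at 1.65, and on hypertensive replicate 1, at 1.55 beside 1.35 and 1.43. A second actin ratio was lowest on normotensive replicate 3, at 0.566, and on hypertensive replicate 1, at 0.197. The part of RNA quality in these signals was not tested.

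**Figure D5:**
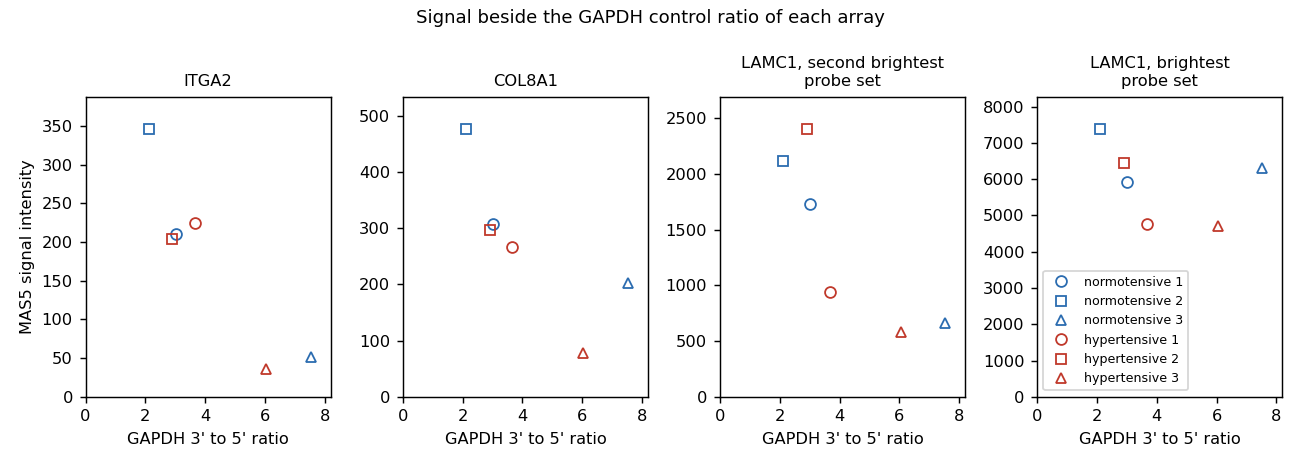
Signal of ITGA2, COL8A1 and the 2 brightest LAMC1 probe sets (vertical axes, linear from 0) against the GAPDH 3′ to 5′ control ratio of the array (horizontal axis), 1 mark per array; blue is normotensive, red hypertensive, triangles are replicate 3. The triangles, at ratios of 7.52 and 6.04, are the lowest marks in the first 3 panels; in the panel of the brightest LAMC1 probe set, normotensive replicate 3, at 6310, is not.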

How the data were processed

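RNA from 6 samples of pig aortic valve leaflet was measured on the Affymetrix Porcine Genome Array. Each array received 10 µg of cRNA made from 70 ng of total RNA in successive rounds of in vitro transcription, per the labels' protocols. The authors deposited 1 linear signal intensity per probe set and array, made with GCOS and MAS5 per the submitters' processing notes (versions not given in the sources used here). Their 2% trimmed mean was 500.1 on each array, so arrays had been scaled alike, and a shift of most transcripts would not be seen.

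Of 23999 non-control probe sets, 10069 had 1 gene symbol in the platform annotation, 198 several and 13732 none. All 31 members were matched by Entrez ID to RefSeq. Intensities were taken to log2 without pseudocount. Probe sets at or above the 40th percentile of mean log2 signal, 14399, were tested with limma 3.58.1 in R 4.3.3 (eBayes with an intensity trend, 2-sided, Benjamini-Hochberg adjustment). That fit was also run on simulated data with independent arrays of equal spread, and so was not tried on arrays as unlike as these. Precision is limited by the number of arrays, and no detection calls were used.

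Members and lists were chosen with earlier results of these data known. Values by array are given for the 5 brightest genes of a class, up to 8 of smallest p whose groups did not overlap, leukocyte integrins, partner chains, and from the lists up to 4 of smallest p without overlap; members named beyond this rule are given to account for every member.

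Alternatives were quantile normalization, median centring, array weights, a fit without the intensity trend or with robust variance, the replicate block, no filter or a 60th percentile filter, adding 16 or 64 before log2, averaging a gene's tested probe sets, and leaving out each array.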

Additional observations from a re-analysis of the deposited data

How the results depend on the processing

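Across 32 genes given with tests and all alternatives, 523 values kept direction and side of the threshold, 19 newly passed and 28 changed sign. COL2A1, COL3A1, COL4A2, COL5A1, COL5A3, COL8A1, COL15A1, LAMB1, LAMC1, ITGAV, FKBP14, FKBP10, BMP1, CD151, VCL, POSTN, NID2, SPP1, LUM and SELP kept their sign in every alternative run. Probe sets that passed numbered 0, but 5639 with array weights and 0 to 3505 with 1 array left out (1 without normotensive replicate 2, 3505 without hypertensive replicate 2); the cause was not tested.

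With array weights the collagen median was -0.46 and the laminin median -0.35, with 2 laminins lower, the endothelial marker median was -0.52, and 2 smooth muscle markers were lower. With the 60th percentile filter, which tests fewer genes, the collagen median was -0.47, 1 integrin was lower with a median of 0.20, and 3 leukocyte and 2 endothelial markers were lower. With no filter, 7 of 12 integrins were lower and the endothelial marker median was 0.36. When probe sets were averaged the collagen median was -0.38 and the interstitial marker median -0.43. Without replicate 3 of both groups, chosen after seeing the data, the collagen median was -0.45, 2 laminins were lower, LAMB2 was at -0.17 and the interstitial marker median was -0.50. With 1 array left out, the collagen median ran from -0.50 to -0.077, the interstitial marker median from -0.47 to -0.20 and the laminin median from -0.34 to 0.27, with 1 to 2 laminins and 2 to 4 integrins lower.

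Signs turned with quantile normalization for COL5A2 (0.019), COL6A3 (-0.034) and ITGB1 (-0.040), and with median centring for COL5A2 (0.024). They turned with array weights for COL6A2 (0.020), COL6A3 (-0.088), LAMB2 (-0.37), ITGA2B (0.31), ITGB1 (-0.0055) and ITGB3 (-0.0053), and when probe sets of a gene were averaged for COL5A2 (0.47) and SEC31A (0.042). With 1 array left out, ranges that crossed 0 were -0.71 to 0.11 for COL1A2, -0.23 to 0.067 for COL5A2, -0.24 to 0.0042 for COL6A2, -0.0073 to 0.22 for COL6A3, -0.34 to 0.27 for LAMB2, -1.20 to 0.46 for ITGA2, -0.23 to 0.11 for ITGA2B, -0.56 to 0.42 for ITGB2 and -0.43 to 0.014 for ITGB5; the causes were not tested.

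The labels give both groups the same replicate numbers. They do not say that these numbers mark pairs, so the main fit did not take them as such. Deviations of same-numbered arrays correlated at 0.06, 0.07 and 0.23, and every array correlated best with its own number. With the replicate block 0 probe sets passed and no direction changed, but unadjusted p-values by limma moved both ways. They went from 0.653 to 0.263 for ITGA2, from 0.211 to 0.0595 for COL8A1 and from 0.0242 to 0.0409 for COL15A1. Signals near the filter level are imprecise.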
